A study of Homo sapiens with 6 samples.

Results

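The 10 genes described here encode the pocket proteins (RB1, RBL1 and RBL2), the 5 subunits of the MuvB core (LIN9, LIN37, LIN52, LIN54 and RBBP4), and B-MYB (MYBL2) and FOXM1, the transcription factors that work with MuvB late in the cell cycle. They were chosen by name as the parts of these complexes, with earlier results of these data known. Each was matched to 1 Ensembl identifier among the 60656 genes of the count table. Of the 10, 9 had enough counts to be tested, and LIN37 had 0 counts in every library.

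RNA was sequenced from parental ZR-75-1 cells, an established ER-positive human breast cancer line with intact RB1. Of the 6 libraries, 3 came from cells given 500 nM abemaciclib, a CDK4/6 inhibitor, and 3 from cells given DMSO, the vehicle, all for 4 days in the same serum-containing medium. The cells carry no engineered allele, and both groups are of this 1 line, with replicates that the study's methods describe as independent. Cells with RB1 knocked out were not analysed here.

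Rb, p107 (RBL1) and p130 (RBL2) are related proteins that bind E2F factors and repress their targets until cyclin-dependent kinases phosphorylate them. In resting cells p130, or p107 in its place, joins E2F4 or E2F5, a DP partner and the MuvB core to form DREAM, a complex that represses genes of both the G1/S and the G2/M phases. When cells enter the cycle the pocket protein leaves, and MuvB takes up B-MYB and then FOXM1 and activates G2/M genes. MuvB reaches the DNA through LIN54, which binds the cell cycle genes homology region (CHR), whereas E2F–DP pairs bind GC-rich E2F sites. In breast cancer these proteins lie directly downstream of the kinases that CDK4/6 inhibitors block.

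Sequence before the annotated start sites was read from RefSeq (GRCh38.p14), which held 15 start sites for 9 of the members and none for FOXM1. The 250 bases before each start were searched on both strands for 4 kinds of motif. For E2F the letters were TTCCCGC, alternatively TTCGCGC, alternatively TTGCCGC, alternatively TTGGCGC, and lastly GGCGGGA, whose reverse strand overlaps TTCCCGC when both occur. The others were CHR letters (TTTGAA or TTCGAA), the CCAAT box (CCAAT) and forkhead letters (TAAACA). E2F letters stood in 10 of the 15 windows, from 7 members, and in 20.2% of all 35116 windows of this length. CHR letters stood in 4 of the 15 windows, from 3 members, and in 14.3% of all windows. The paired windows of LIN37, LIN54 and RBBP4 overlap, so the 15 are not separate. The CCAAT box occurred in at least 1 window of 4 of the 9 members, and forkhead letters in a window of RBL2 alone. Of all single windows, 32% held the CCAAT box and 11% held forkhead letters. Those are shares of windows and are not comparable with counts of members, several of which have more than 1 window. Several of the starts lie inside the annotated gene. The RB1 start lies 172706 bases after the beginning of the gene, and its window held no match to any of the 4. Those of LIN54 lie 2092 and 2103 bases inside, and those of RBL2 lie 494 and 1642 bases inside. The LIN9 start with CHR letters lies 705 bases inside, and its 250-base window is annotated as exon throughout. So is the RBL1 window, as exon of ENSG00000269846. The LIN37 start with CHR letters lies 453 bases inside, and 224 bases of its window are exon. Of the other windows with stretches printed below, those of MYBL2, RBBP4 and RBL2 hold 66 to 109 exon bases, and those of LIN52 and LIN54 hold 0. A match describes the letters and does not show that a factor binds there.

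The stretches below, 30 bases each on the strand of the gene, show E2F, CHR or forkhead matches in capitals for RBL1, RBL2, MYBL2 and the MuvB core. None is shown for FOXM1, which had no start site, or for RB1, whose window held no match. In RBL1 a pair of E2F matches lies close to the start (chr20:37096000-37096029, minus strand), and in MYBL2 a single one does (chr20:43667064-43667093, plus strand). In RBBP4 E2F matches overlap beside an inverted CCAAT box, left in lower case (chr1:32651152-32651181, plus strand), and in LIN52 they overlap on opposite strands (chr14:74084920-74084949, plus strand). CHR letters occur in LIN9 (chr1:226309207-226309236, minus strand), in LIN37 (chr19:35748620-35748649, plus strand) and, next to E2F letters, in LIN54 (chr4:83010896-83010925, minus strand). The 2 forkhead matches of RBL2 are at chr16:53434270-53434299 and chr16:53434334-53434363 on the plus strand, the first reading TGTTTA because it lies on the reverse strand.
RBL1: gcagattTTCGCGCgctTTGGCGCaggtgg
MYBL2: ccgacgcgcttGGCGGGAgatagaaaagtg
RBBP4: ccattggctgatgTTGGCGCGAAggtgcgc
LIN52: tggaacctcgttTTCCCGCCgacggttggc
LIN9: gcgagctccgcaTTCGAAcctccctcgcaa
LIN37: acgaagctcatcTTTGAActgtccccgcct
LIN54: cgTTTGAAggttggcggggcGGCGGGAggc
RBL2, first match: tggggaggtacgTGTTTAaaatgcggggaa
RBL2, second match: agctaattttttTAAACAtgatttttggcc

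Total counts lay between 3317860 and 4013156 per library. Levels are given in CPM, which are counts brought to a common total with TMM factors. Where no read was counted, as many as 3 counts remain possible (0.748 to 0.904 CPM by library, counting error alone). The kit reads the 3′ end of each polyadenylated transcript, so counts were not divided by gene length. Counts are used in place of transcripts when genes are compared, although reads at an end shared with another gene may be lost or misassigned. Comparisons of level between genes are therefore approximate. The 8 luminal epithelial markers were all detected, with a summed level of 7478 to 7935 CPM with DMSO and 8520 to 9512 CPM with abemaciclib. Of 12 markers of fibroblasts, muscle, endothelium, leukocytes and basal epithelium, 9 were at 0 in all libraries, VIM, PECAM1, PTPRC and KRT5 among them, and the 12 summed to 18.7 to 29.1 CPM with DMSO and 10.6 to 17 CPM with abemaciclib. Their part in the results was not tested.

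Of the 9 tested members, 4 were lower with abemaciclib (RB1, RBL1, MYBL2 and FOXM1) and 0 were higher, by the quasi-likelihood test of edgeR with P adjusted over all 10863 genes (Benjamini–Hochberg, threshold 0.05). Across all genes tested, 13.3% were lower and 12.5% higher, 25.7% in either direction. The same 4 members lay below every DMSO library in every abemaciclib library (20.1% of all genes tested) and RBL2 lay above (19.1%), so that the groups were apart for 5 of the 9 members and for 39.1% of all genes. At an unadjusted P under 0.05, 1 member, RBL2, was higher, and DESeq2 also called 0 members higher. No transcript of the MuvB core passed, and their log2 fold changes lay between −0.34 and 0.15. MYBL2 and FOXM1 fell furthest, to levels 4.99-fold and 5.71-fold lower. The median log2 fold change of the 9 members was −0.34, beside −0.00 for all genes tested. In bulk RNA a lower level per cell and fewer cells that express a gene cannot be told apart.

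**Figure D1:**
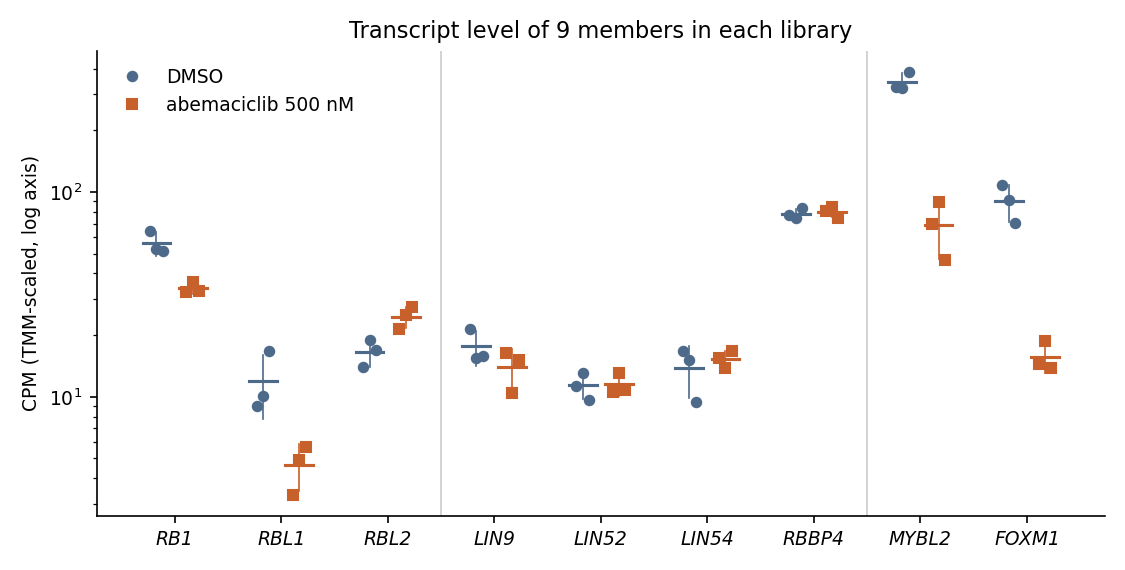
Level of the 9 detected members in each library (points; CPM on a log axis), with the mean (horizontal bar) and SD (vertical line) over 3 DMSO or 3 abemaciclib libraries. MYBL2 and FOXM1 fall far below their DMSO levels, RB1 and RBL1 fall less far, RBL2 lies above, and the groups overlap for LIN9, LIN52, LIN54 and RBBP4.

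RB1 encodes Rb itself, the pocket protein best known as a substrate of CDK4/6, and lies on chromosome 13 from 48303744 to 48599436 (GRCh38). Its level was 64.7, 52.6 and 51.5 CPM in the DMSO libraries and 32.4, 36.5 and 33.0 CPM with abemaciclib. Every abemaciclib library lay below every DMSO library. The means were 56.2 ± 7.32 and 33.9 ± 2.24 CPM (± SD over 3 libraries per group), or −0.73 on the log2 scale (standard error 0.16, 95% interval −1.06 to −0.40, edgeR adjusted P = 0.00104). This was the smallest change among the members past the threshold, a level 1.65-fold lower, and it passed the threshold under every alternative run.

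RBL1 encodes p107, a pocket protein whose level is known to be higher in cycling than in resting cells, and lies on chromosome 20 from 36996349 to 37095997. It had the fewest counts of the tested members. There were 31, 34 and 55 counts in the DMSO libraries, or 8.99, 10.1 and 16.7 CPM. With abemaciclib there were 11, 20 and 21 counts, or 3.33, 4.93 and 5.67 CPM. The groups did not overlap, but DMSO replicate 3 stood above the other DMSO libraries. The mean fell from 11.9 ± 4.14 CPM to 4.65 ± 1.20 CPM (± SD over 3 libraries per group), or −1.34 on the log2 scale (standard error 0.37, 95% interval −2.11 to −0.57, edgeR adjusted P = 0.0082). Without DMSO replicate 3 the log2 fold change was −1.03 and the call was lost (adjusted P = 0.0925).

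RBL2 encodes p130, the pocket protein of resting cells and the usual one of DREAM, and lies on chromosome 16 from 53433977 to 53491648. Its level was 13.9, 19.0 and 17.0 CPM in the DMSO libraries and 21.5, 25.2 and 27.3 CPM with abemaciclib. It was the only member for which all abemaciclib libraries lay above all DMSO libraries. The means were 16.6 ± 2.56 CPM and 24.6 ± 2.94 CPM (± SD over 3 libraries per group), or 0.57 on the log2 scale (standard error 0.22, 95% interval 0.12 to 1.02). With adjustment over all genes it did not pass the threshold (edgeR adjusted P = 0.0579), and the adjusted P was between 0.0481, without abemaciclib replicate 1, and 0.208, without DMSO replicate 1, across the alternatives. The last 500 bases of RBL2 overlap an exon of AKTIP on the opposite strand, so the counts of RBL2 are uncertain. AKTIP was itself given 0 to 16 counts per library, which does not measure how many reads were assigned to the wrong gene of the pair.

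The proportions of the 3 pocket protein transcripts differed between the groups. RB1 made up 73.8%, 64.4% and 60.5% of their summed counts in the DMSO libraries and 56.6%, 54.8% and 50.0% with abemaciclib. RBL2 made up 15.9%, 23.3% and 19.9% with DMSO and 37.6%, 37.8% and 41.4% with abemaciclib, a mean of 19.7% ± 3.7 against 38.9% ± 2.2 (± SD over 3 libraries per group). RBL1 had a mean share of 14.1% ± 4.9 with DMSO and 7.28% ± 1.4 with abemaciclib (± SD over 3 libraries per group). These shares are taken within a library and do not depend on the scaling between libraries. They carry the uncertainty of the RBL2 counts given above.

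**Figure D2:**
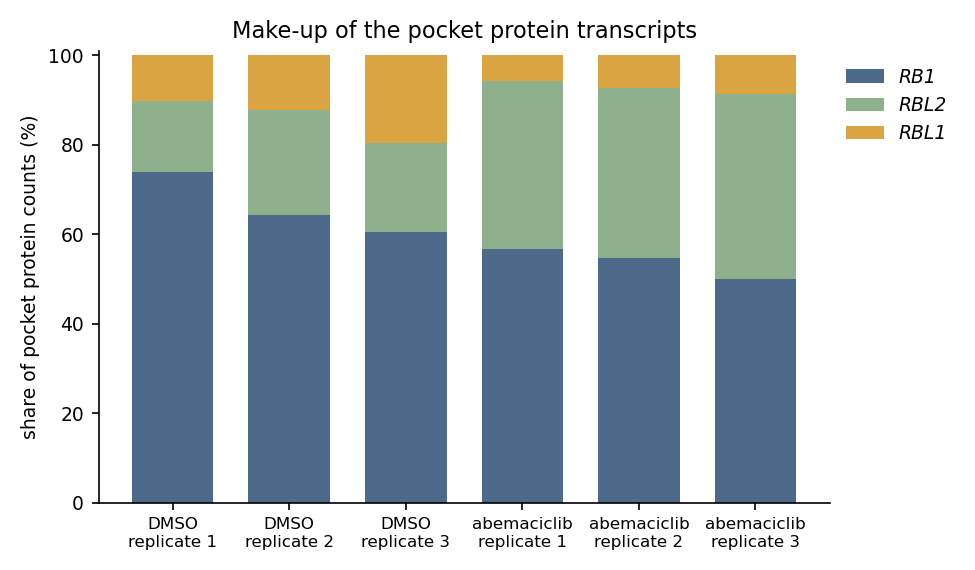
Share of RB1, RBL2 and RBL1 in the summed counts of the 3 pocket protein genes in each library, in percent. RBL2 takes 15.9% to 23.3% with DMSO and 37.6% to 41.4% with abemaciclib, while RB1 and RBL1 take less in every abemaciclib library than in any DMSO library.

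The ratio of RBL1 to RBL2 counts sets the p107 transcript of cycling cells against the p130 transcript of resting cells. It was 0.646, 0.531 and 0.982 in the DMSO libraries and 0.155, 0.196 and 0.208 with abemaciclib. On the log2 scale its mean moved from −0.52 ± 0.45 to −2.44 ± 0.22 (± SD over 3 libraries per group), a difference of −1.91. The exact permutation test over libraries, two-sided, gave P = 0.1, the smallest that 3 libraries against 3 allow, and 0.1 after adjustment over the 3 ratios tested. The summed level of the 3 genes was lower with abemaciclib, 84.8 ± 2.96 CPM against 63.2 ± 5.26 CPM (± SD over 3 libraries per group), with RB1 the largest part of it in every library.

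LIN9, LIN37, LIN52, LIN54 and RBBP4 form the MuvB core that repressing DREAM and activating B-MYB–MuvB share. None of the 4 tested subunits passed the threshold in edgeR or in DESeq2, and 0 had an unadjusted P under 0.05. For each of the 4 the abemaciclib and DMSO libraries overlapped. On GRCh38, RBBP4 lies on chromosome 1 from 32651142 to 32686211 and LIN9 on the same chromosome from 226231149 to 226309869. LIN52 lies on chromosome 14 from 74084956 to 74201493 and LIN54 on chromosome 4 from 82909973 to 83012926.

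RBBP4, a histone-binding WD40 protein shared with several chromatin complexes, was the most abundant subunit and was measured with the most precision. Its level was 77.4, 74.3 and 83.3 CPM with DMSO and 80.5, 84.6 and 74.8 CPM with abemaciclib, with the groups interleaved. The log2 fold change was 0.03 (95% interval −0.23 to 0.29). The 7 annotated RBBP4 pseudogenes held 0 counts in total, and reads shared between them and the gene may not have been counted.

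LIN9, the subunit that with LIN52 forms the docking surface for B-MYB, had 21.5, 15.4 and 15.8 CPM with DMSO and 16.3, 10.4 and 15.1 CPM with abemaciclib. Its log2 fold change was −0.34 (95% interval −0.87 to 0.19), the lowest of the core. LIN52, whose phosphorylation by DYRK1A lets it hold the pocket protein, had 11.3, 13.1 and 9.69 CPM with DMSO and 10.6, 13.1 and 10.8 CPM with abemaciclib. Its log2 fold change was 0.02 (95% interval −0.57 to 0.61). LIN54, the DNA-binding subunit, had 16.8, 15.1 and 9.39 CPM with DMSO and 15.4, 13.8 and 16.8 CPM with abemaciclib. Its log2 fold change was 0.15 (95% interval −0.40 to 0.70). These 3 subunits had 31 to 74 counts per library each, and for each one a change within its own interval is not excluded.

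LIN37, the subunit needed for DREAM to repress but not for MuvB to activate, had 0 counts in all 6 libraries. It lies on chromosome 19 from 35748361 to 35754519, and its 3′ end falls on the same base as that of the overlapping gene ENSG00000188223 on the same strand, which also had 0 counts in all 6 libraries. How reads that overlap more than 1 gene were treated is not given in the sources used here, so the 0 cannot be read as an absent transcript, and LIN37 has no value in these comparisons.

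MYBL2 encodes B-MYB, is itself a classical target repressed through E2F and DREAM, and lies on chromosome 20 from 43667019 to 43716495. It had 325.1, 321.1 and 386.2 CPM in the DMSO libraries, the highest level of the members, and 69.9, 89.8 and 46.7 CPM with abemaciclib. All 3 abemaciclib libraries lay far below the DMSO range. The mean fell from 344.1 ± 36.5 CPM to 68.8 ± 21.6 CPM (± SD over 3 libraries per group), or −2.32 on the log2 scale (standard error 0.15, 95% interval −2.62 to −2.01, edgeR adjusted P = 6.07e-13). This was a level 4.99-fold lower and the 164th largest fall of the 10863 genes tested. The abemaciclib libraries spread widely around their mean, with replicate 3 lowest, and the log2 fold change was −2.56 to −2.10 with each library left out in turn.

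FOXM1, the forkhead factor that joins B-MYB–MuvB on G2/M promoters, lies on chromosome 12 from 2857680 to 2877174. It had 107.9, 91.8 and 70.6 CPM in the DMSO libraries and 14.5, 18.8 and 13.8 CPM with abemaciclib, again with no overlap. The mean fell from 90.1 ± 18.7 CPM to 15.7 ± 2.68 CPM (± SD over 3 libraries per group), or −2.51 on the log2 scale (standard error 0.18, 95% interval −2.89 to −2.14, edgeR adjusted P = 8.95e-12). This was the largest fall of the members, to a level 5.71-fold lower. The last 500 bases of FOXM1 overlap an exon of ITFG2 on the opposite strand, which had 33 to 44 counts with DMSO and 13 to 35 with abemaciclib, so some counts of FOXM1 could belong to that gene if the counting did not use the strand.

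**Figure D3:**
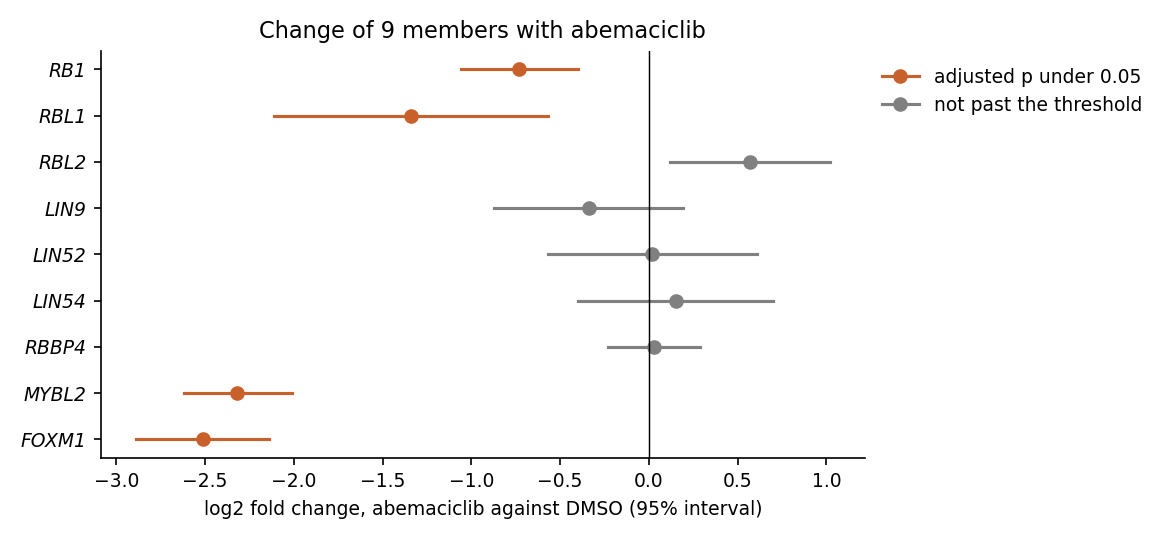
Log2 fold change of each tested member with abemaciclib against DMSO (points) with its 95% interval (lines). FOXM1 and MYBL2 lie below −2, RBL1 and RB1 lie between −1.34 and −0.73, the interval of RBL2 lies above 0 although its adjusted P is 0.0579, and the intervals of the 4 MuvB core genes include 0.

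MYBL2 and FOXM1 were also set against the summed counts of the LIN genes, which are those of LIN9, LIN52 and LIN54, since LIN37 added 0 counts. RBBP4, which other complexes share, was left out of the sum. MYBL2 had 6.56, 7.35 and 11.1 counts for each count of the LIN genes in the DMSO libraries and 1.65, 2.41 and 1.09 with abemaciclib, a log2 difference of −2.31. FOXM1 had 2.18, 2.10 and 2.03 with DMSO and 0.343, 0.503 and 0.323 with abemaciclib, a log2 difference of −2.46. FOXM1 counts thus outnumbered those of the LIN genes in every DMSO library and in no abemaciclib library. For each ratio the exact permutation test over libraries, two-sided, gave P = 0.1, the smallest possible here, also after adjustment over the 3 ratios. The LIN sum itself was 49.6, 43.7 and 34.8 CPM with DMSO and 42.4, 37.3 and 42.7 CPM with abemaciclib, with overlap.

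The order of the members by level changed between the groups. With DMSO it was MYBL2, FOXM1, RBBP4, RB1, LIN9, RBL2, LIN54, RBL1 and LIN52. The ranges of FOXM1 and RBBP4 overlapped, and so did those of each neighbouring pair from LIN9 to LIN52. With abemaciclib the order was RBBP4, MYBL2, RB1, RBL2, FOXM1, LIN54, LIN9, LIN52 and RBL1. There the ranges of RBBP4 and MYBL2 overlapped, as did each neighbouring pair from FOXM1 to LIN52. RBL2 lay among the low genes with DMSO and had a range of its own with abemaciclib, between RB1 and FOXM1. Its mean went from 16.6 to 24.6 CPM without passing the threshold, and its counts are uncertain. The mean of FOXM1 fell from 90.1 to 15.7 CPM and that of RB1 from 56.2 to 33.9 CPM. RBL1 moved to last, below every library of LIN52.

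Of 8 partners and regulators of DREAM, 2 fell and 0 rose past the threshold (edgeR), with DESeq2 also giving 0 higher and only MYB higher at an unadjusted P under 0.05. That count is close to the 25.7% of all genes tested that passed in either direction. The median of their log2 fold changes was −0.21. TFDP1, a DP partner of E2F factors, fell by a log2 fold change of 0.47 (edgeR adjusted P = 0.00721), which no longer passed without DMSO replicate 2 (adjusted P = 0.0527) or without abemaciclib replicate 2 (0.0736). RBBP7, the close relative of RBBP4, had 136.7 ± 6.79 CPM with DMSO and 101.4 ± 4.97 CPM with abemaciclib (± SD over 3 libraries per group), a log2 fold change of −0.43 (adjusted P = 0.0045). The repressive E2F factors of DREAM did not pass the threshold, E2F4 with a log2 fold change of −0.06 and E2F5 with 0.09 (its end overlaps RBIS on the opposite strand), and neither did TFDP2 with 0.04. DYRK1A, the kinase that favours DREAM assembly, had −0.44 (adjusted P = 0.0641). Of the relatives of B-MYB, MYBL1 had −0.36 and MYB had 0.38 (adjusted P = 0.0601). MYB passed the threshold upwards without DMSO replicate 3 or without abemaciclib replicate 3 (adjusted P = 0.0481 and 0.0375).

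Of 16 cyclins, kinases and inhibitors that set the phosphorylation of pocket proteins, 12 were tested. Of these, 8 were lower and 1 was higher, beside 13.3% lower and 12.5% higher among all genes tested. CCND1, the cyclin that activates CDK4 and CDK6, was the one that rose, with a log2 fold change of 1.34, and its 3′ end overlaps LTO1 on the opposite strand. CCNE2 had 54, 47 and 47 counts with DMSO and 1 count in each abemaciclib library, and CCNA2 had 114 to 151 counts against 2 to 6. The ends of these genes overlap INTS8 and EXOSC9 on the opposite strand. The CDK4/6 inhibitor gene CDKN2C fell by 2.77 on the log2 scale, from 32.6 ± 4.44 CPM to 4.65 ± 2.13 CPM (± SD over 3 libraries per group). With at least 10 counts required in every library, CCNE2, CCNA2, CDKN2C and CDKN2D (the last named after its values were seen) were not tested and 4 genes were lower.

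All 26 genes taken as G1/S targets of E2F were tested. Of these, 24 fell and 0 rose (edgeR, and also 0 upwards before adjustment), beside 13.3% lower and 12.5% higher among all genes tested. The median of the log2 fold changes was −1.50. TYMS, which makes thymidylate, had 252 to 286 counts with DMSO and 2 to 7 with abemaciclib, and its end overlaps ENOSF1 on the opposite strand. RRM2, a subunit of ribonucleotide reductase, fell from 52.2 ± 8.26 CPM to 1.72 ± 1.26 CPM (± SD over 3 libraries per group). Of the 35 genes taken as G2/M targets of MuvB with B-MYB and FOXM1, 34 were tested and all 34 were lower, around a median log2 fold change of −2.37 and ranging from −6.75 to −0.57. AURKB, a mitotic kinase, had 206 to 272 counts with DMSO and 2 to 3 with abemaciclib. MKI67, the proliferation marker, had a log2 fold change of −6.71, and CENPA, the centromeric histone, had 45 to 55 counts with DMSO and 0, 3 and 0 with abemaciclib. With at least 10 counts required in every library, TYMS, RRM2, AURKB and CENPA were among the genes not tested, and 21 G1/S and 29 G2/M genes were lower. CCNE2, given above among the cyclins, is also counted in the G1/S list and was likewise not tested there. The size of a fall to so few counts is uncertain. MYBL2 and FOXM1, at −2.32 and −2.51, lay close to the median of the G2/M list, RBL1 at −1.34 close to that of the G1/S list, and the MuvB core near that of all genes. The G1/S list ranged from −6.06 to −0.20, so MYBL2, FOXM1 and RBL1 each lie within the range of both lists. These differences between members and lists were not tested.

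**Figure D4:**
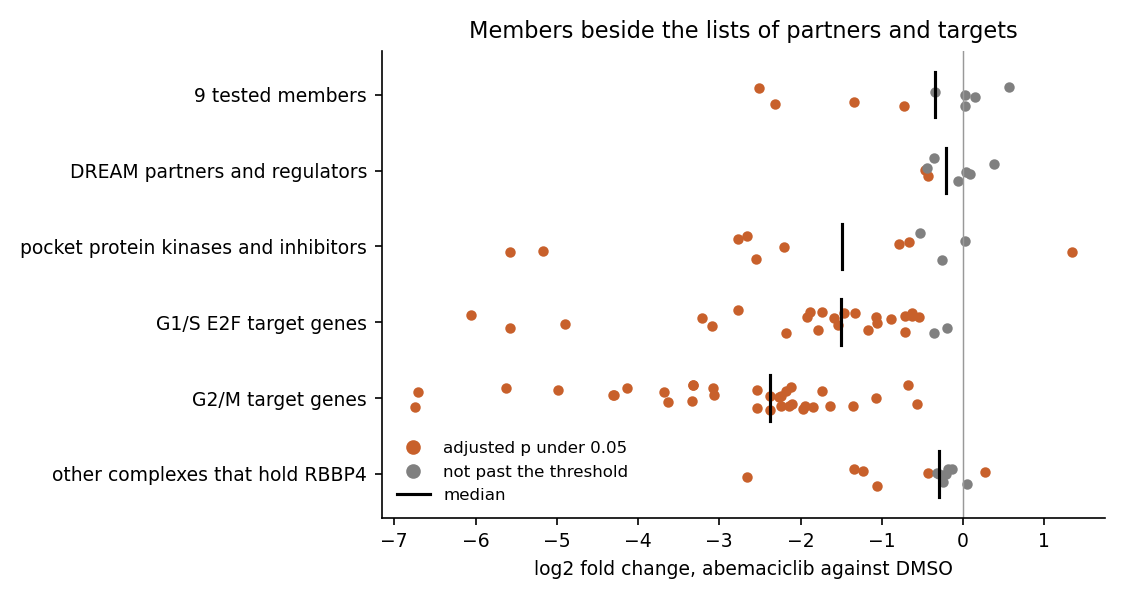
Log2 fold change of each tested gene (points) with abemaciclib against DMSO for the members and 5 lists, coloured by whether the gene passed an adjusted P of 0.05, with the median of each list (black bar). The G1/S and G2/M lists have medians of −1.50 and −2.37, while the members spread from −2.51 to 0.57.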

How the data were processed

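The 6 libraries, of 3′ mRNA from parental ZR-75-1 cells, were grouped by the treatment in their labels. Reads were trimmed, aligned to hg38 with STAR 2.7.5b and counted per gene with featureCounts 2.0.1 by the authors, who deposited the raw counts without normalization. Whether the counting used strand is not given in the sources used here. Symbols were matched by Ensembl identifier, and positions are from a later GENCODE release on GRCh38.

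Abemaciclib was compared with DMSO with edgeR 4.0.16 under R 4.3.3 (low counts removed by filterByExpr, TMM scaling, glmQLFit and glmQLFTest, no other term) over 10863 genes, with a threshold of 0.05 on the Benjamini–Hochberg-adjusted P. The test was checked on simulated data in which far fewer genes changed than passed here, so the check does not cover a change of this extent. Standard errors are the size of the log2 fold change divided by the square root of F, and the biological coefficient of variation was 13.2%. Ratios of members were tested by exact permutation over libraries. Alternatives were DESeq2 1.42.0, its size factors, total counts only, other filters on low counts, a replicate block, each library left out, and, for ratios, a pseudocount of 1.

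All 10 members were named, and of each list the 3 largest falls and 2 largest rises past the threshold, or any gene of a list of under 10 tested. The members and lists were chosen with earlier results of these data known.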

Additional observations from a re-analysis of the deposited data

How the results depend on the processing

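Of 345 values recomputed under the alternatives, 320 stood (call and direction as before, or, for a count of genes, within 1.5 times the count reported, or, for a ratio, within 1 SD), 18 moved, 5 reversed, 1 was weaker and 1 was stronger. Leaving out 1 of 3 libraries moves the mean of a group by less than 1 SD, so the ratios in those fits could only stand. Counts of 0 that stayed at 0 are also among the values that stood. With each library left out in turn, 3 to 4 members were lower and 0 to 1 higher. RBL1 had log2 fold changes of −1.51 to −1.03 and lost its call without DMSO replicate 3. RBL2 had 0.45 to 0.67 and gained a call without abemaciclib replicate 1. Values near 0 that changed sign in these fits were those of LIN52 (−0.08 to 0.13), LIN54 (−0.06 to 0.31) and RBBP4 (−0.01 to 0.08). Partners of DREAM were 0 to 1 higher and 1 to 2 lower, complexes that hold RBBP4 were 0 to 1 higher, and luminal markers were 1 to 2 lower. Complexes that hold RBBP4 had 0 higher with DESeq2, with total counts only, with no filter on low counts, with at least 10 counts in every library and with the replicate block. With at least 10 counts in every library, 4 kinases and inhibitors of pocket proteins and 0 other cell type markers were lower, since genes with few counts were not tested. For the other changes the cause was not tested. The same replicate number did not mark libraries that deviated together (correlations of −0.089 to 0.007 over genes), and with the replicate block 4 members were lower and 0 higher. Depth limits RBL1, LIN52 and LIN54 most, with 11 to 62 counts per library.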

Other observations

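RBBP4 is also a subunit of other chromatin complexes, and 6 of their 13 genes, all tested, passed the threshold (edgeR, 5 lower and 1 higher, beside 13.3% lower and 12.5% higher among all genes tested), with −0.29 as the median of the log2 fold changes. EZH2, the catalytic subunit of Polycomb repressive complex 2, had 62.9, 77.5 and 76.3 CPM with DMSO and 11.5, 12.6 and 10.0 CPM with abemaciclib, with no overlap. It fell by 2.66 on the log2 scale (standard error 0.18, adjusted P = 3.48e-12). Its partner EED, which binds methylated histone H3, fell by 1.23 (adjusted P = 0.00222). SUZ12, the remaining core subunit of that complex, named here after its values were seen, had −0.14 (adjusted P = 0.468).

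CHAF1B, a subunit of the chromatin assembly factor CAF-1 that works with RBBP4 behind replication forks, fell by 1.34 in log2 units (adjusted P = 0.0197), from 26, 27 and 31 counts to 13, 12 and 11. Its call was lost in 4 of the 6 fits that left out a library, namely DMSO 2 or 3 or abemaciclib 2 or 3 (adjusted P between 0.051 and 0.0723). The larger CAF-1 subunit CHAF1A, also named after its values were seen, fell by 1.06 (adjusted P = 2.32e-05), and its end overlaps UBXN6 on the opposite strand. CHAF1A is also one of the genes taken as G1/S targets, so its fall is counted in both lists. RBBP7, given above among the partners of DREAM, was the other gene that fell. MTA1, a NuRD subunit whose end overlaps ENSG00000257270, was the gene that rose, by 0.27 (adjusted P = 0.0498), and it did not pass with DESeq2 (0.0555) or with the replicate block (0.0843). Nor did it pass without DMSO 2 or 3 or abemaciclib 1 or 2 (edgeR adjusted P between 0.127 and 0.215). The 7 genes that did not pass had log2 fold changes from −0.32 to 0.05.

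Among the 8 luminal epithelial markers, ESR1 and KRT19 rose, KRT18 fell and 5 did not pass, with a median log2 fold change of 0.12. Of all genes tested, 12.5% were higher and 13.3% lower. Of the 12 markers of other cell types 2 were tested. ACTA2, whose end overlaps ACTA2-AS1, fell by 2.82 on the log2 scale, and COL1A1 had −0.06.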
